A study of Homo sapiens with 18 samples.

Results

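The genes described here are 10 long noncoding RNA genes that carry small nucleolar RNAs (snoRNAs) in their introns: GAS5, ZFAS1, SNHG1, SNHG5, SNHG6, SNHG7, SNHG8, SNHG12, SNHG15 and SNHG16. They were taken by symbol from a table of 58815 genes, and all 10 passed the filter on low counts together with 12150 other genes. RNA was measured in LM2, BrM3 and BoM cells, derivatives of the human breast cancer line MDA-MB-231 (triple-negative) that had been obtained by their preference for lung, brain and bone, respectively, after passage through mice. All cells carried a doxycycline (DOX)-inducible hairpin, either the control hairpin shCtrl or shWDR5 against the chromatin and MYC cofactor WDR5, and all had DOX at 1 μg/mL for 3 days, so that the controls were exposed to DOX as well. Each of the 6 groups of line and hairpin had 3 libraries, from cells harvested at different passages, which gives 18 libraries. The comparison asks how the RNA of these host genes changed when WDR5 was lowered in each subline. The labels give the hairpin against WDR5 no number, and the paper's methods name it shWDR5-1. With 1 such hairpin, an effect of lowered WDR5 and an off-target effect of the hairpin cannot be told apart.

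snoRNAs guide the chemical modification of ribosomal and spliceosomal RNA: box C/D snoRNAs direct 2′-O-methylation and box H/ACA snoRNAs direct pseudouridylation. Most human snoRNAs are cut from the introns of a host transcript, and in hosts such as these the spliced RNA encodes no known functional protein and is often short-lived, being read by ribosomes and degraded by nonsense-mediated decay. Many host genes, like ribosomal protein (RP) genes, start transcription within a run of pyrimidines (a terminal oligopyrimidine tract), a feature that ties the translation of such RNAs to growth signals.

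Total counts ranged from 17485841 to 119667013 per library. WDR5, the target of the hairpin, was at 79.4 to 134 CPM (counts per 1000000, scaled by TMM) in the 9 shCtrl libraries and at 14.004 to 24.4 CPM in the 9 shWDR5 libraries, so the hairpin of each library matched its label. This says nothing of the line labels. The MDA-MB-231 markers VIM, CD44, ITGB1 and AXL were at 497 CPM or more in every library, whereas the luminal markers ESR1, PGR and CDH1 were at 0.715 CPM or less. ERBB3 (3.43 to 17.6 CPM) and EPCAM (4.39 to 10.1 CPM) were low but present. The sum of the 5 luminal markers went from between 12.3 and 12.7 CPM to between 8.33 and 9.16 CPM with shWDR5 in LM2, from between 25.0 and 28.3 CPM to between 19.8 and 21.9 CPM in BrM3, and from between 18.7 and 19.5 CPM to between 11.6 and 12.6 CPM in BoM, and its part in the results on host genes was not tested. One library stood apart for the host genes. BoM shWDR5 replicate 3 was the highest of its group for all 10 of them, with 2044 CPM summed over the 10 against 1097 and 1391 in the other 2 libraries, and its summed RP genes were also the highest of the group (65152 CPM against 41497 and 53725). The BoM log2 fold changes of the 10 host genes, and what is built on them, are therefore given with and without it. In RNA from whole cultures, a change in RNA per cell and a change in the share of cells that hold the RNA cannot be told apart.

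The start regions of 5 of the genes whose RNA rose over the 3 lines are shown first, those of SNHG12, ZFAS1, SNHG5 and SNHG7 for the sequence features they share and that of SNHG1, the gene with the largest rise, for comparison. RefSeq windows of 250 bases before to 50 bases after the start (build GRCh38.p14) were matched for 8 of the 10 genes. SNHG6 and SNHG15 were not matched. The stretch printed for each gene begins 60 bases before the start and is 110 bases long. Capitals mark TATATAA or TATAAA, and the start tract, defined as a C followed by at least 4 C or T bases that begins no more than 3 bases from the start.
SNHG12, chr1:28581824-28581933, minus strand: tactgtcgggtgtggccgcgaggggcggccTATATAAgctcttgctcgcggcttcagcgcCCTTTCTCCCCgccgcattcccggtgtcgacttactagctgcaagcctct
ZFAS1, chr20:49278582-49278691, plus strand: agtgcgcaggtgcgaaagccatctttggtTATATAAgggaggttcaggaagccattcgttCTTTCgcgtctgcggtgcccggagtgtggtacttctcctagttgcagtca
SNHG5, chr6:85678684-85678793, minus strand: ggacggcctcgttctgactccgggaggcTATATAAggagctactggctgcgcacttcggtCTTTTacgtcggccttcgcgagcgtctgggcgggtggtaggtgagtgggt
SNHG7, chr9:136728135-136728244, minus strand: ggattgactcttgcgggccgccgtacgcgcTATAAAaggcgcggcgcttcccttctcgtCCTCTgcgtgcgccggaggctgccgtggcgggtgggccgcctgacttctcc
SNHG1, chr11:62855836-62855945, minus strand: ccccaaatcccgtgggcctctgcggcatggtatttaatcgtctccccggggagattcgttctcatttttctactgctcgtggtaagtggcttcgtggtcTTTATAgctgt

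In SNHG12, ZFAS1, SNHG5 and SNHG7 the TATA letters lay 30 to 32 bases before the start, and the tract lay at the start itself. In SNHG1 the match was on the opposite strand and downstream of the start, and no tract began there. On either strand and over the whole window, TATATAA or TATAAA was found in 5 of the 8 genes and in 12.6% of 35116 RefSeq windows of the same length. The shorter motif is not part of the longer one, and a window with both was counted once. The start tract was found in 4 of the 8 genes and in 13.0% of all windows. SNHG8 and SNHG16, which also rose over the mean of the lines, had neither feature, and nor did GAS5, which was not called. The tract was sought only next to the start of the RefSeq window, so a tract at another start of the same gene would be missed. Whether these features bear on the rise was not tested. CACGTG, the core letters of an E-box, a kind of site that MYC and related factors bind, was found in 1 of the 8 windows (SNHG7) and in 7.26% of all windows. These matches describe letters and are not evidence of a bound factor.

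SNHG15, the host of the box H/ACA snoRNA SNORA9, was the one member that fell, and it fell in every line. It lies at chr7:44983019-44986961 (GRCh38, minus strand), and no annotated antisense gene overlaps its exons. In LM2, its level was 33.6, 35.3 and 34.7 CPM in the shCtrl libraries and 18.7, 18.1 and 16.7 CPM in the shWDR5 libraries. In BrM3, it went from 40.9, 46.5 and 41.5 CPM to 19.2, 25.3 and 24.2 CPM. In BoM, it went from 63.5, 73.1 and 68.8 CPM to 28.6, 32.5 and 49.8 CPM. All 9 shWDR5 libraries lay below each of the 3 shCtrl libraries of their own line, a separation found for 14.6% of tested genes for LM2, 19.7% for BrM3 and 17.3% for BoM. Its log2 fold changes were -0.95 ± 0.16 (SE) for LM2, -0.90 ± 0.16 for BrM3 and -0.89 ± 0.16 for BoM, which left 51.7%, 53.5% and 53.9% of the control level. The adjusted p-values of edgeR's quasi-likelihood test were 0.00138, 0.00146 and 0.000874. Over the mean of the 3 lines, SNHG15 fell by 0.92 ± 0.09 on the log2 scale (adjusted p = 1.07e-06, edgeR). Of 12160 tested genes, 4.80% were called down for LM2, 7.96% for BrM3 and 10.8% for BoM, and 3.26% were called down in each of the 3 lines.

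The fall of SNHG15 had nearly the same size in the 3 lines. The difference in log2 fold change was 0.05 between BrM3 and LM2 (95% interval -0.43 to 0.53), 0.06 between BoM and LM2 (-0.42 to 0.54) and 0.01 between BoM and BrM3 (-0.47 to 0.49). None was called. Without BoM shWDR5 replicate 3, BoM differed by -0.21 ± 0.16 (SE) from LM2 and by -0.26 ± 0.16 from BrM3, again not called. SNHG15 was called down in all 3 lines in each of the 18 fits that left out 1 library. Without BoM shWDR5 replicate 3, its log2 fold change in BoM was -1.17 ± 0.12.

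**Figure D1:**
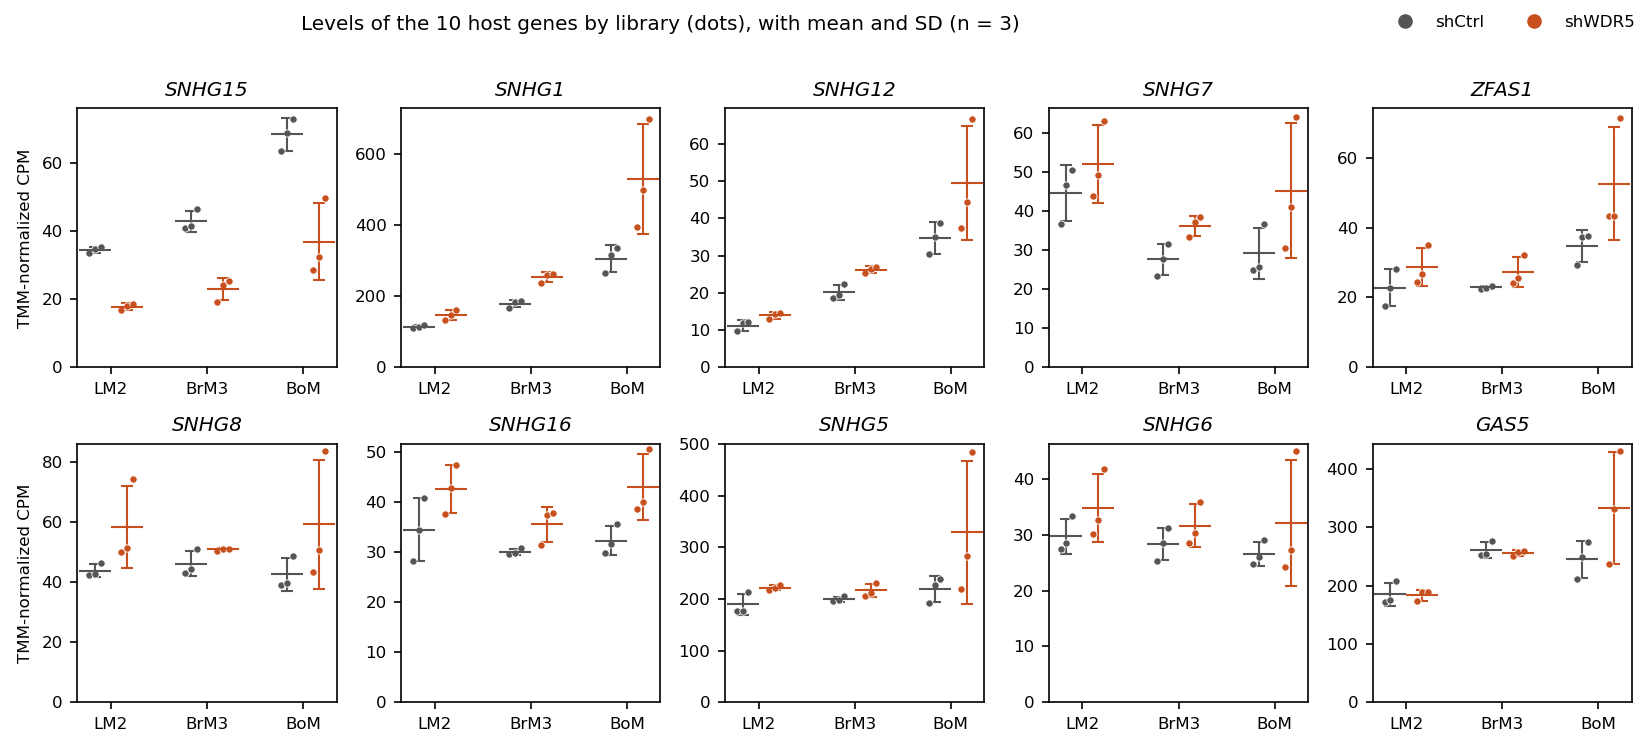
TMM-scaled CPM of the 10 host genes (y axes, from 0) in the 3 lines (x axes), with 1 dot per library, shCtrl in grey and shWDR5 in orange. Horizontal bars are means and error bars the SD over 3 libraries. SNHG15 lies lower with shWDR5 in all 3 lines, and the highest shWDR5 dot in BoM is replicate 3 for each gene.

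The 3 genes with the pattern most like SNHG15 over the 18 libraries, by Pearson correlation of log2 CPM centred on each line's mean, were RPL37A (r = 0.986), SNHG17 (r = 0.980) and RPL31 (r = 0.980). RPL37A and RPL31 encode proteins of the large ribosomal subunit, and SNHG17 is another noncoding snoRNA host. The points share the knockdown itself, and the correlations are a description. RPL37A went from between 595 and 738 CPM in the LM2 shCtrl libraries to between 302 and 359.5 CPM in the shWDR5 libraries. Its log2 fold change was -0.997 ± 0.18 for LM2, -0.85 ± 0.18 for BrM3 and -0.89 ± 0.18 for BoM, close to the values of SNHG15. SNHG17 fell less, by 0.61 ± 0.13, 0.48 ± 0.13 and 0.50 ± 0.13 on the log2 scale in LM2, BrM3 and BoM. In BoM, replicate 3 had the highest shWDR5 level of each of these genes too, for example 501 CPM of RPL37A against 273 and 306 CPM. Without it, the BoM log2 fold changes of RPL37A, SNHG17 and RPL31 were -1.20 ± 0.14, -0.69 ± 0.11 and -0.96 ± 0.10.

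**Figure D2:**
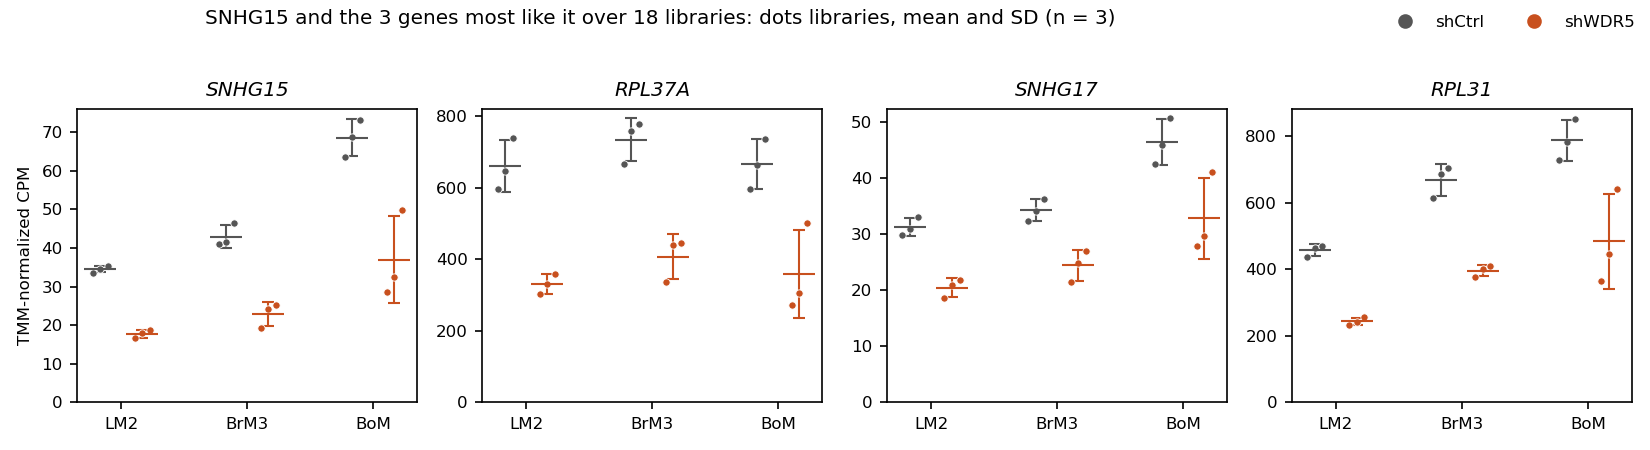
TMM-scaled CPM (y axes, from 0) of SNHG15 and of RPL37A, SNHG17 and RPL31 in the 3 lines (x axes), with 1 dot per library, means as bars and SD over 3 libraries as error bars. In each panel and line all shWDR5 libraries lie below all shCtrl libraries.

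SNHG1, which hosts a series of box C/D snoRNAs that includes SNORD22, SNORD25 to SNORD28 and SNORD30, moved the other way. It lies at chr11:62851978-62855953 (minus strand), with no annotated antisense gene over its exons. Its shCtrl libraries were at 118, 109 and 114 CPM in LM2, 182, 168 and 186 CPM in BrM3, and 263, 315 and 336 CPM in BoM. The shWDR5 libraries were at 147, 161 and 132 CPM in LM2, 236, 261 and 259.7 CPM in BrM3, and 394, 498 and 698 CPM in BoM. The groups did not overlap in any line. SNHG1 rose in BrM3, with a log2 fold change of 0.50 ± 0.15 (adjusted p = 0.0419, edgeR), and in BoM, with 0.80 ± 0.15 (adjusted p = 0.00176, edgeR). In LM2 the log2 fold change was 0.37 ± 0.15 and did not pass (adjusted p = 0.165, edgeR). Over the mean of the 3 lines, SNHG1 rose by 0.56 ± 0.09 on the log2 scale (adjusted p = 0.00011, edgeR).

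The call of SNHG1 in BoM held in each of the 18 fits without 1 library, and its log2 fold change was 0.55 ± 0.12 without BoM shWDR5 replicate 3. The call in BrM3 held in 10 of the 18. It was lost without any of the BrM3 shCtrl libraries, without BrM3 shWDR5 replicate 2 or 3, and also without BoM shWDR5 replicate 2, LM2 shCtrl replicate 2 or LM2 shWDR5 replicate 1, with log2 fold changes between 0.45 and 0.54 over all fits.

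SNHG12, SNHG5 and SNHG16 passed the test in BoM alone among the lines, each narrowly. SNHG12 hosts SNORD99 and several H/ACA snoRNAs, and its exons (chr1:28578538-28583132, minus strand) overlap those of TRNAU1AP on the other strand by 8 bases. It was at 9.64, 11.8 and 12.2 CPM in LM2 shCtrl and 12.9, 14.3 and 14.7 CPM in LM2 shWDR5. In BrM3 it was at 18.5, 22.3 and 19.5 CPM against 25.2, 26.5 and 26.9 CPM with shWDR5. In BoM it was at 30.4, 38.9 and 35.1 CPM against 37.4, 44.3 and 66.7 CPM. The groups were apart in LM2 and BrM3 and overlapped in BoM. Log2 fold changes of SNHG12 came to 0.30 ± 0.17 for LM2, 0.39 ± 0.17 for BrM3 and 0.51 ± 0.16 for BoM, with adjusted p-values of 0.34, 0.156 and 0.0446 (edgeR).

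SNHG5, the host of the SNORD50 snoRNAs (chr6:85650491-85678932, minus strand), was at 192, 228 and 238 CPM in BoM shCtrl and 219, 283 and 484 CPM in BoM shWDR5. In LM2 it was at 214, 178 and 178 CPM against 218, 221 and 228 CPM. In BrM3 it was at 205, 197 and 196 CPM against 206, 231 and 212 CPM. The groups overlapped in BoM, where replicate 3 was far above the others, and were apart by small margins in LM2 and BrM3. For SNHG5 the log2 fold change was 0.23 ± 0.19 for LM2, 0.12 ± 0.19 for BrM3 and 0.59 ± 0.19 for BoM, and the BoM value passed (adjusted p = 0.0443, edgeR).

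SNHG16, the host of the SNORD1 snoRNAs (chr17:76557727-76670985, plus strand), was at 29.9, 31.6 and 35.6 CPM in BoM shCtrl and 38.6, 40.0 and 50.6 CPM in BoM shWDR5. It was at 40.9, 34.5 and 28.3 CPM against 47.4, 42.9 and 37.8 CPM in LM2. In BrM3 it was at 29.8, 29.7 and 30.9 CPM against 31.6, 37.9 and 37.4 CPM. The groups overlapped in LM2 and were apart in BrM3 and BoM. For SNHG16 the log2 fold change was 0.31 ± 0.14 for LM2, 0.24 ± 0.14 for BrM3 and 0.41 ± 0.14 for BoM, and the BoM value passed (adjusted p = 0.0491, edgeR). The calls of SNHG12, SNHG5 and SNHG16 in BoM each held in 6 of the 18 fits without 1 library and were lost with BoM fitted alone (adjusted p = 0.132, 0.149 and 0.0775, edgeR). Without BoM shWDR5 replicate 3 their log2 fold changes were 0.23, 0.20 and 0.28.

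In BoM, 4 of the 10 members were called up and 1 down, where 5.41% of all tested genes were called up, 10.8% down and 16.2% in either direction. In BrM3, 1 was called up and 1 down, against 2.92% of tested genes up and 10.9% in either direction. In LM2, 0 were called up and 1 down, against 1.49% of tested genes up and 6.29% in either direction. In LM2, 3 members were higher at an unadjusted p under 0.05 with edgeR (SNHG1, SNHG8 and SNHG16), as were 7.60% of tested genes. DESeq2 called 0 members up in LM2, where it called 3.37% of tested genes up, 1 in BrM3 (5.29% of genes) and 7 in BoM (8.83% of genes). SNHG1, SNHG12, SNHG16 and SNHG5 were each called up in at most 2 lines, and 0.748% of tested genes were called up in each of the 3.

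These counts moved with the fit and with single libraries. Deviations of same-numbered BoM libraries of the 2 hairpins had r = 0.56, 0.32 and 0.14. BoM shWDR5 replicate 3 correlated better with shCtrl replicate 2 (r = 0.21) than with its own number, so the pairing is uncertain. With the replicate number as a block in all 3 lines, 7 members were called up in BoM, where 11.3% of tested genes were. Added to the 4 were GAS5 (adjusted p = 0.00772), SNHG7 (adjusted p = 0.0272) and ZFAS1 (adjusted p = 0.0287), each by edgeR. Leaving out BoM shWDR5 replicate 3 left 1 member up in BoM, SNHG1, but gave 2 in BrM3 (SNHG1 and SNHG12) and 1 in LM2 (SNHG1). Leaving out BoM shWDR5 replicate 1 gave 8 up in BoM. The BoM count also fell to 1 without BoM shCtrl replicate 1, BrM3 shCtrl replicate 1 or 3, BrM3 shWDR5 replicate 2 or 3, LM2 shCtrl replicate 2, or LM2 shWDR5 replicate 1 or 2, and to 2 without BoM shCtrl replicate 2 or BrM3 shCtrl replicate 2. Members whose shWDR5 libraries all lay above their shCtrl libraries numbered 4 for LM2, 6 for BrM3 and 3 for BoM, and such separation was seen in 10.7%, 15.9% and 12.8% of tested genes. The median log2 fold change of the 10 members was 0.27 for LM2, 0.20 for BrM3 and 0.49 for BoM, against -0.0009, -0.0048 and 0.016 over all tested genes. Without BoM shWDR5 replicate 3 the BoM median of the members was 0.22.

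Over the mean of the 3 lines, 7 of the 10 members were called up and 1 down, where 15.6% of tested genes were called up, 19.9% down and 35.5% in either direction. The members that rose were SNHG1, SNHG12, SNHG7, ZFAS1, SNHG8, SNHG16 and SNHG5, with log2 fold changes from 0.31 (SNHG5, adjusted p = 0.035, edgeR) to 0.56 (SNHG1). The same 7 were called up without BoM shWDR5 replicate 3, with log2 fold changes from 0.18 (SNHG5) to 0.47 (SNHG1). The call of SNHG5 held in 10 of the 18 fits without 1 library, and it was lost without BoM shCtrl replicate 1 and without 3 BrM3 and 4 LM2 libraries. The other 6 held in each of the 18.

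**Figure D3:**
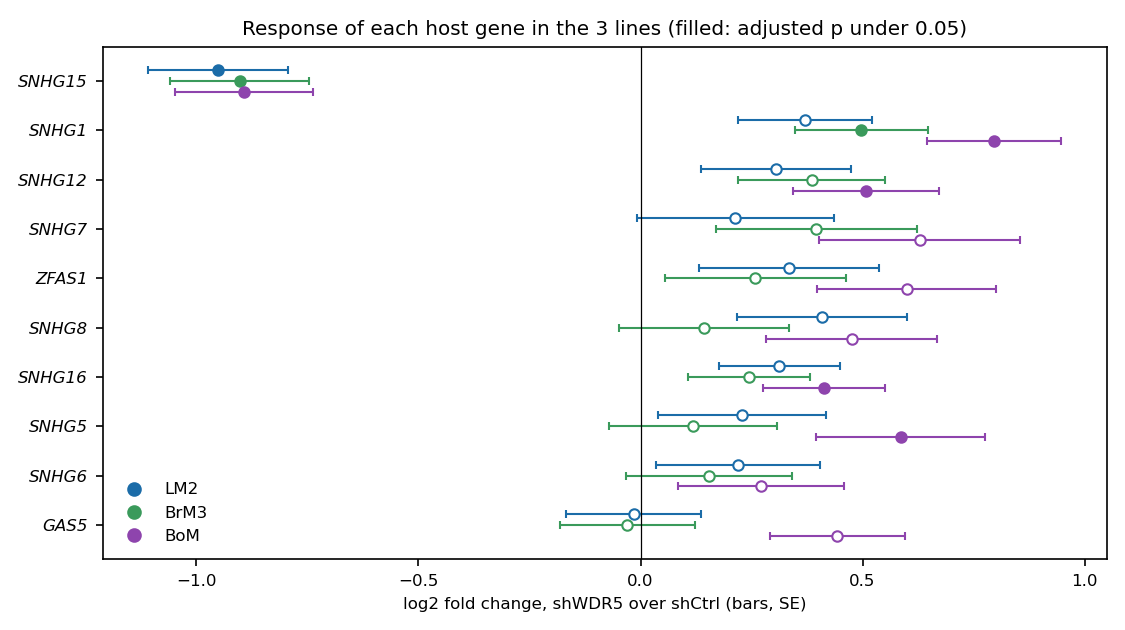
Log2 fold change of shWDR5 over shCtrl (x axis) for each host gene (y axis) in LM2, BrM3 and BoM, with SE as bars, from 1 edgeR fit of 18 libraries. Filled points passed an adjusted p of 0.05: SNHG15 to the left of 0 in all 3 lines, SNHG1 to the right in BrM3 and BoM, and SNHG12, SNHG16 and SNHG5 in BoM.

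ZFAS1, SNHG7 and SNHG8 rose over the mean of the lines without passing in any single line. ZFAS1 (chr20:49278178-49299600, plus strand), which hosts the SNORD12 snoRNAs, was at 28.2, 22.7 and 17.5 CPM in LM2 shCtrl against 24.4, 26.8 and 35.0 CPM with shWDR5, at 23.4, 22.8 and 22.4 CPM against 24.1, 32.2 and 25.6 CPM in BrM3, and at 29.4, 37.3 and 37.6 CPM against 43.2, 43.3 and 71.5 CPM in BoM. The groups overlapped in LM2 and were apart in BrM3 and BoM. Its mean log2 fold change was 0.40 ± 0.12 (adjusted p = 0.0141, edgeR), and in BoM it was 0.60 ± 0.20 (adjusted p = 0.053, edgeR), or 0.32 ± 0.19 without replicate 3 of shWDR5.

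SNHG7 (chr9:136721366-136728184, minus strand), the host of the SNORA17 snoRNAs, was at 36.7, 46.8 and 50.7 CPM in LM2 shCtrl against 49.2, 43.9 and 63.3 CPM with shWDR5. It was at 23.5, 31.6 and 27.8 CPM against 33.4, 38.4 and 37.1 CPM in BrM3, and at 25.8, 36.8 and 24.9 CPM against 30.6, 41.0 and 64.3 CPM in BoM. The groups were apart in BrM3 alone. The mean log2 fold change was 0.41 ± 0.13 (adjusted p = 0.0198, edgeR), and in BoM it was 0.63 ± 0.23, or 0.29 ± 0.20 without replicate 3 of shWDR5. With each library's dependence on GC content removed, SNHG7 also passed in BrM3 (log2 fold change 0.66) and BoM (0.90). It is the member with the highest GC content in its longest annotated transcript, 65.9%, where the lowest is 39.0%.

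SNHG8 (chr4:118278703-118285316, plus strand), the host of SNORA24, was at 42.7, 42.5 and 46.4 CPM in LM2 shCtrl against 49.96, 51.2 and 74.2 CPM with shWDR5, at 43.2, 50.9 and 44.2 CPM against 51.0, 51.1 and 50.5 CPM in BrM3, and at 39.9, 48.8 and 39.1 CPM against 43.4, 50.8 and 83.7 CPM in BoM. The groups were apart in LM2 alone. Its mean log2 fold change was 0.34 ± 0.11 (adjusted p = 0.023, edgeR), and in BoM it was 0.48 ± 0.19, or 0.14 ± 0.15 without replicate 3 of shWDR5. The exons of SNHG7 and SNHG8 overlap those of antisense genes (DIPK1B and PRSS12, respectively) by 1482 and 2487 bases, and in all 7 of the 10 members have such an overlap. How strand was set in the counting is not given in the sources used here, so reads of these partners cannot be told apart from those of the host.

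SNHG6 and GAS5 did not pass in any line or over the mean. SNHG6, the host of SNORD87, ranged from 24.1 to 45.0 CPM over the 18 libraries. Its log2 fold change was 0.22 ± 0.19 for LM2, 0.15 ± 0.19 for BrM3 and 0.27 ± 0.19 for BoM, and the BoM value was -0.05 without replicate 3 of shWDR5. GAS5, named for its accumulation in growth-arrested cells and known as a host of many box C/D snoRNAs (chr1:173858559-173868882, minus strand), was at 208, 172 and 176 CPM in LM2 shCtrl and 173, 188 and 188 CPM in LM2 shWDR5. In BrM3 it was at 253, 253 and 277 CPM against 250.3, 258 and 259 CPM. The LM2 and BrM3 groups overlapped, with log2 fold changes of -0.02 ± 0.15 (95% interval -0.35 to 0.32) and -0.03 ± 0.15 (-0.36 to 0.30). In BoM GAS5 was at 211, 249 and 275 CPM against 238, 331 and 430.0 CPM, again with overlap, for a log2 fold change of 0.44 ± 0.15 (adjusted p = 0.0575, edgeR), or 0.22 ± 0.13 without replicate 3 of shWDR5.

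The difference in response between lines was called for 0 of the 10 members in each of the 3 pairs of lines with edgeR, and for 0 with DESeq2. Over all tested genes, edgeR called 0.00822% for BrM3 against LM2, 0% for BoM against LM2, and 0.00822% for BoM against BrM3. At an unadjusted p under 0.05 there was 1 member, GAS5, for BoM against LM2 (difference 0.46, 95% interval -0.01 to 0.93) and for BoM against BrM3 (0.47, 0.0035 to 0.94), as were 5.18% and 2.90% of tested genes. The intervals use the residual degrees of freedom alone and are somewhat wider than the test implies, so the first includes 0. For SNHG1 the difference between BoM and LM2 was 0.43 (95% interval -0.04 to 0.89). The response in BoM was the more positive one for all 10 members in both pairs, from 0.05 to 0.46 against LM2 and from 0.01 to 0.47 against BrM3, but this rested on BoM shWDR5 replicate 3. Without it, the response in BoM was the more positive one for 3 members and the less positive for 7 against LM2 (from -0.27 to 0.23), and for 6 and 4 against BrM3 (from -0.26 to 0.25). GAS5 then differed by 0.23 ± 0.18 and 0.25 ± 0.18, and 0 members had an unadjusted p under 0.05 in either pair. Both pairs share the BoM libraries.

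Apart from SNHG15, the members moved together across libraries. On log2 CPM centred on each line's mean, Pearson's r over the 18 libraries was positive for all 36 pairs among the other 9 members, from 0.32 (SNHG16 and SNHG6) to 0.93 (SNHG12 and SNHG7), with a median of 0.75. SNHG15 was negatively correlated with each of the 9, from -0.09 (GAS5) to -0.64 (SNHG1). Over the 17 libraries without BoM shWDR5 replicate 3, 35 of the 36 pairs were positive, from -0.12 to 0.86 with a median of 0.53, and SNHG15 was again negative with each of the 9 (-0.84 to -0.15). These correlations hold both the response to the hairpin and the spread between replicates, and they are given as a description. The same figure was not computed for pairs of other genes, so joint movement is not shown to be particular to these genes.

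**Figure D4:**
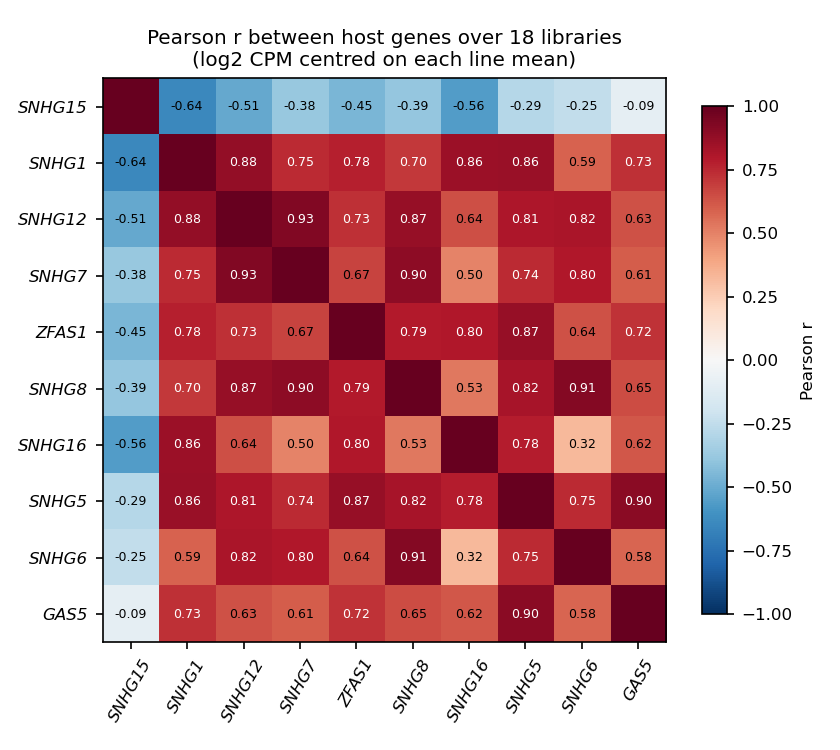
Pearson's r between each pair of host genes over 18 libraries, on log2 CPM centred on each line's mean, printed in each cell off the diagonal and shown from blue (-1) through white (0) to red (1). The row of SNHG15 is negative throughout, and all 36 other pairs are positive.

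The lines also differed at baseline. In the shCtrl groups, SNHG1 was at 114 ± 4.17 CPM in LM2, 179 ± 9.77 CPM in BrM3 and 305 ± 37.5 CPM in BoM (mean ± SD, n = 3). SNHG12 followed the same order, with 11.2 ± 1.37, 20.1 ± 1.98 and 34.8 ± 4.26 CPM. Each step was called for both genes: SNHG1 was higher by 0.65 ± 0.15 on the log2 scale in BrM3 than in LM2 and by 0.77 ± 0.15 in BoM than in BrM3, and SNHG12 by 0.84 ± 0.17 and 0.79 ± 0.17. Between BoM and LM2 this came to 2.68-fold for SNHG1 and 3.09-fold for SNHG12. SNHG15 was at 34.5 ± 0.855 CPM in LM2, 43.0 ± 3.09 CPM in BrM3 and 68.5 ± 4.80 CPM in BoM. It was higher in BoM than in LM2 (1.98-fold) and BrM3 (1.59-fold), while the difference between BrM3 and LM2 missed the threshold (log2 difference 0.31 ± 0.15, adjusted p = 0.103, edgeR).

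ZFAS1 was higher in BoM shCtrl (34.8 ± 4.64 CPM) than in LM2 (22.8 ± 5.33 CPM) and BrM3 (22.9 ± 0.456 CPM), and the latter 2 differed by 0.01 on the log2 scale. GAS5 was lower in LM2 (185 ± 20.0 CPM) than in BrM3 (261 ± 13.5 CPM) and BoM (245 ± 32.4 CPM), though its call between BoM and LM2 was lost with the GC dependence removed (adjusted p = 0.0827, edgeR). SNHG7 was higher in LM2 (44.7 ± 7.23 CPM) than in BrM3 (27.6 ± 4.06 CPM) and BoM (29.2 ± 6.66 CPM). With the GC dependence removed, its difference between BoM and LM2 went from -0.62 to -0.18 on the log2 scale and was no longer called, and BoM became higher than BrM3 by 0.65. SNHG5, SNHG6, SNHG8 and SNHG16 were called in none of the 3 contrasts. In all, 4 members were called in the contrast of BrM3 with LM2 (3 higher in BrM3, 1 lower), where 47.6% of tested genes were called, 24.2% higher and 23.4% lower. For BoM against LM2 there were 6 (5 higher in BoM, 1 lower), where 51.8% of tested genes were called, 26.0% higher and 25.8% lower. For BoM against BrM3 there were 4, all higher in BoM, where 37.6% of tested genes were called, 17.8% higher and 19.8% lower. These contrasts share control libraries. The calls of GAS5, SNHG7 and ZFAS1 were each lost in some fits without 1 library. Without BoM shCtrl replicate 3, and likewise without LM2 shCtrl replicate 3, 3 members were left for BoM against LM2.

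The snoRNAs themselves were hardly counted. GENCODE release 44 places 26 snoRNA genes inside 9 of the hosts on the same strand, 16 of them box C/D and 9 box H/ACA. These are annotation entries, and some share a place in the genome. SNORA17B and SNORA16A are each entered more than once, and an unnamed entry lies over SNORA17A, all of them at 0. The same search returned 0 for GAS5, although it is known as a host, so its snoRNAs are not covered here. Of the 26, 21 were at 0 in all 18 libraries, each of them overlapping an annotated host exon, and 5 had a count. Libraries made from polyadenylated RNA are not designed to hold mature snoRNAs, so a 0 here does not show that a snoRNA is absent, and the part of the exon overlap was not tested. SNORD99 in SNHG12, 1 of the 3 that overlap no host exon, was the one snoRNA gene with at least 10 counts in every library (12 to 70). SNORD12B in ZFAS1 had 6 to 48 counts and SNORD12C 3 to 19. The sequences of the 2 with the most counts are shown with the D box CTGA in capitals and, where its exact letters occur, the C box TGATGA.
SNORD99, chr1:28578749-28578822, minus strand: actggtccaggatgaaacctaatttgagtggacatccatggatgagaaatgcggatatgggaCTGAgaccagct
SNORD12B, chr20:49280319-49280409, plus strand: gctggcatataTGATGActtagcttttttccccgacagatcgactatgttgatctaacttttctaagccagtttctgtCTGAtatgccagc

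Other snoRNA hosts and the machinery around them were described from lists chosen with earlier results of these data known. Of 20 other noncoding snoRNA hosts, 15 were tested, and over the mean of the lines 3 rose and 3 fell (median log2 fold change 0.02, against 0.003 over all tested genes). Without BoM shWDR5 replicate 3, again 3 rose and 3 fell, with a median of -0.03. SNHG11 fell the most (-0.97 ± 0.12) and SNHG29 rose the most (0.41 ± 0.05). Over the mean of the lines, 15.6% of tested genes were called up and 19.9% down. SNHG11 and SNHG17 were called down in each of the 3 lines and SNHG29 up in each, as were 3.26% and 0.748% of tested genes.

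The counts in this paragraph stand beside 15.6% of tested genes called up and 19.9% called down over the mean of the lines. Among 32 other protein-coding snoRNA hosts, 18 rose and 5 fell over the mean of the lines (median 0.21), from SNRPB, a core protein of spliceosomal snRNPs (-0.53 ± 0.15), to TAF1D, a subunit of the RNA polymerase I selectivity factor (0.56 ± 0.09). The 27 RP genes that host snoRNAs split, with 13 up and 10 down and a median of 0.28, from RPL17 (-1.16 ± 0.18) to RPL21 (0.51 ± 0.08). Of all 78 tested cytoplasmic RP genes, which include those 27, 25 rose and 41 fell (median -0.33), from RPL26 (-1.42 ± 0.14) to RPLP0 (0.54 ± 0.07). The rows of RPL17 (1.28 to 12.5 CPM) and RPL26 (10.7 to 56.8 CPM) were low, where RPL21 was at 408 CPM or more. Whether these rows hold all reads of RPL17 and RPL26 was not tested.

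Proteins that bind and assemble snoRNAs, or act in decay, were described from 2 further lists. Over the mean of the lines, 35.5% of tested genes were called in either direction, 15.6% up and 19.9% down. Of 17 snoRNP core and assembly proteins, 7 rose and 1 fell over the mean of the lines (median 0.18), from ZNHIT3, an assembly factor of box C/D snoRNPs (-0.24 ± 0.06), to NOP56, a core protein of box C/D snoRNPs (0.37 ± 0.06). Of 14 nonsense-mediated decay factors, 4 rose and 0 fell (median 0.12), with UPF3A, a paralog of UPF3B, rising the most (0.30 ± 0.04). Without BoM shWDR5 replicate 3 the counts over the mean of the lines were 7 up and 1 down of the 17 snoRNP genes, 5 up of the 14 decay genes, 19 up and 6 down of the 32 coding hosts, and 23 up and 41 down of the 78 RP genes. Of the 27 RP genes that host snoRNAs, 12 were then up and 10 down, with a median of 0.23. Whether the stability of host RNAs changed was not tested.

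**Figure D5:**
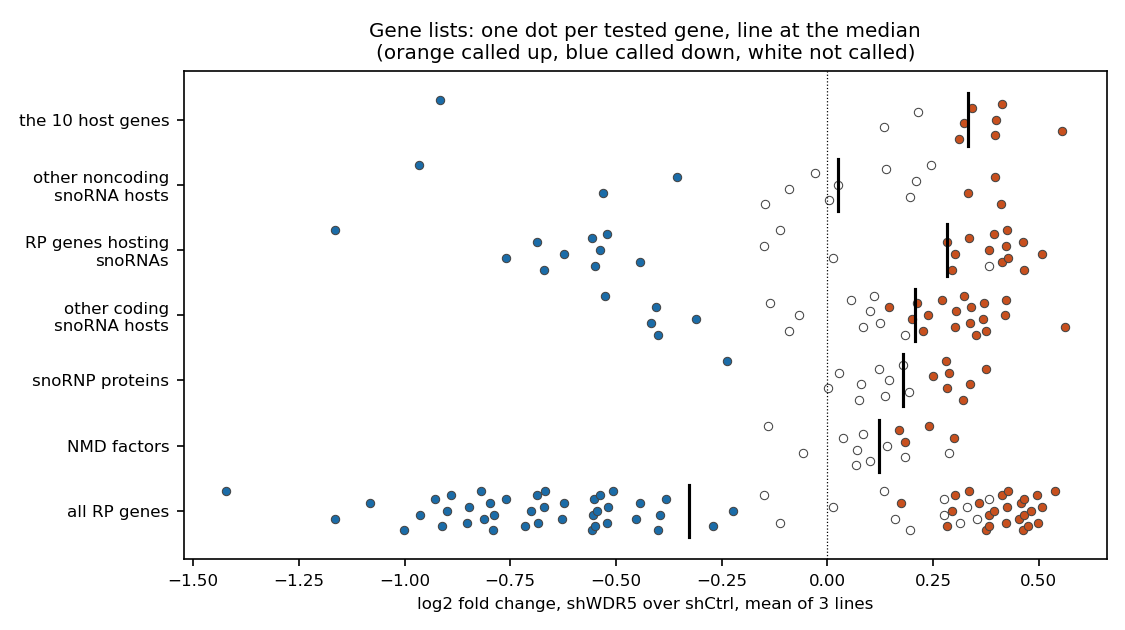
Log2 fold change of shWDR5 over shCtrl, mean of 3 lines (x axis), for each tested gene of 7 lists (y axis), orange where called up, blue where called down and white where not called, with a black line at the median. SNHG15 stands alone to the left among the 10 host genes, while the RP genes fall on both sides of 0.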

How the data were processed

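RNA from 18 cultures was sequenced as stranded, paired-end mRNA libraries. The authors aligned reads to hg38 with STAR 2.7.0 (the submitters' processing notes also name CASAVA 1.8.2) and deposited raw counts of reads per gene, without normalization. Spike-in RNA was added to the samples, but the table holds 0 spike-in rows, and 0 per-sample columns were left unused. Libraries were grouped by the line and hairpin in their titles. Column names in the table mark WDR5 libraries, and the other columns of each line were taken as shCtrl, its one other hairpin. The source label names another line for most libraries and was not used. The line named BrM3 here, after the paper, is BrM2 in the cell line label.

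Counts were scaled by TMM and tested with edgeR's quasi-likelihood F-test (edgeR 4.0.16, R 4.3.3) in 1 fit of all 6 groups, which left 12 residual degrees of freedom. HTSFilter's criterion was recomputed: over 100 thresholds between 1 and 200, the Jaccard index between replicates peaked at 139.7 normalized counts (index 0.970), which left 12160 genes. P-values were adjusted by Benjamini-Hochberg over these, and genes under 0.05 were called. SEs were derived from the F statistic. The 95% intervals used the 12 residual degrees of freedom alone. The test also draws on information shared between genes, so the intervals are somewhat wider than the test implies. CPM are counts per 1000000 of the TMM-scaled library. P-values measure the spread between replicates taken at different passages.

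The genes and lists were chosen with earlier results of these data known. Named genes were all members, WDR5, the called gene with the largest fall and rise in each list, and, for members called in all 3 lines, the 3 genes most correlated with them. The other hosts called by line, the markers, and SNORD12B and SNORD12C were named after their values were seen. The fit was tested on simulated counts. Replicate pairs differed by more than sampling noise (chi-square per gene 5.12 to 90.1), so each library counted as 1 replicate. Alternatives were DESeq2 1.42.0, relative log expression factors, filterByExpr (18428 genes), no filter (41236 genes), the replicate number as a block, each line alone, leaving out each library, and removal of GC dependence by loess (span 0.5). Coordinates are GENCODE 44 on GRCh38.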

Additional observations from a re-analysis of the deposited data

How the results depend on the processing

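The fall of SNHG15 kept its call in each line under every alternative run, and the number of members called down stayed at 1. The number called up (LM2 0, BrM3 1, BoM 4) was less stable, and the cause was not tested. It was 7 in BoM with DESeq2, 2 in BrM3 and 8 in BoM with no expression filter, and 2 in BrM3 and 1 in BoM with each line fitted alone. With the GC dependence removed it was 1 in LM2 and 3 in BrM3. Leaving out 1 library at a time gave 0 to 1 in LM2, 0 to 2 in BrM3 and 1 to 8 in BoM, with 7 to 10 members called over the mean of the lines, and 3 to 5, 3 to 6 and 3 to 4 called in shCtrl between BrM3 and LM2, BoM and LM2, and BoM and BrM3. Replicate numbers came from the titles. In BoM all 3 same-numbered pairs had a correlation of deviations over 0.1. Over the 3 lines 7 of 9 had (lowest -0.17), and 12 of 18 libraries correlated best with their own number. Mean r was 0.36 for same-numbered pairs and -0.19 for the others. The pairing was thus uncertain, and the main fit used no block in any of the 3 lines. With the replicate block, LM2 and BrM3 had 2 members called up each and BoM 7, and with the GC dependence removed as well, the counts were 4, 4 and 7 in that order.

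Over all tested genes, the numbers called were 765 (LM2), 1323 (BrM3) and 1967 (BoM). With the block this became 1443, 2310 and 3205, with the GC dependence removed 1989, 2991 and 3471, and with both 3442, 4537 and 4850. With each line alone, 292 were called in LM2 and 913 in BoM. Without 1 library the ranges for the lines, in that order, were 385 to 995, 745 to 1589 and 1177 to 2340. Of the called genes, 23.7% were up in LM2, 26.8% in BrM3, 33.5% in BoM and 44.02% for the mean of the lines. With the GC dependence removed these shares were 50.1%, 56.1%, 55.5% and 60.7%, and with the block as well 57.0%, 60.9%, 59.8% and 61.4%. The share was 35.7% in LM2 with DESeq2, and with each line alone 37.1% in BrM3 and 21.6% in BoM. The median of all genes moved by less than 0.1 on the log2 scale under every setting.

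Some values near 0 changed sign. GAS5 in LM2 (-0.02) became 0.016 with filterByExpr, 0.0031 with no filter, 0.013 with the GC dependence removed and 0.011 with the block added to that, and GAS5 in BrM3 (-0.03) became 0.017 and 0.014 with filterByExpr and no filter. ZFAS1 between BrM3 and LM2 shCtrl became -0.042 with the GC dependence removed. Without 1 library, the log2 fold change ranged from -0.068 to 0.076 for GAS5 in LM2, from -0.052 to 0.014 for GAS5 in BrM3 and from -0.050 to 0.44 for SNHG6 in BoM. The log2 difference in shCtrl ranged from -0.15 to 0.19 for ZFAS1, from -0.14 to 0.018 for SNHG6 and from -0.0064 to 0.12 for SNHG8 between BrM3 and LM2, from -0.22 to 0.043 for SNHG16 and from -0.15 to 0.01 for SNHG8 between BoM and LM2, and from -0.18 to 0.0078 for GAS5 and from -0.12 to 0.19 for SNHG7 between BoM and BrM3.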
